A study of Mus musculus with 1646 samples.

Results

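Genes of the Notch pathway were followed in mesenchymal cells of the mouse colon, 10 of the 46517 genes in the count table. They were chosen by name, as the receptors *Notch1*, *Notch2*, *Notch3* and *Notch4*, the ligands *Jag1* and *Jag2*, and the effector genes *Hes1*, *Hey1*, *Hey2* and *Heyl*, and all 10 were found through their Ensembl identifiers. Notch receptors are single-pass membrane proteins that are activated by ligands of the Jagged and Delta families on a neighbouring cell. Proteolytic cleavage then frees the intracellular domain, which joins the DNA-binding protein RBPJ in the nucleus and switches on transcriptional repressors of the Hes and Hey families. In blood vessels NOTCH3 is the receptor known from mural cells, the pericytes and smooth muscle cells (SMC) that surround the endothelium.

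The data were full-length single-cell RNA sequencing counts (SmartSeq2) of 1646 colon cells from male mice of 10 to 20 weeks on a C57Bl6/J background, without molecular identifiers. Cells were sorted from 4 reporter lines onto 9 plates: Acta2GFP (567 cells), Cspg4dsRED (91 cells), PdgfrbGFP (761 cells) and PdgfraGFP (the remaining cells). PdgfraGFP is a knock-in of a nuclear GFP at the *Pdgfra* locus, and each of the other lines marks cells through the regulatory sequences of the gene in its name. No treatment was compared; all sorted cells were negative for the endothelial protein CD31, and the study left out cells with neither *Pdgfra* nor *Pdgfrb* and cells with endothelial or immune signatures. The labels name no mouse, so that the spread between lines or plates stands in for the spread between animals. The labels place every cell in one of 8 clusters. By the study's anatomical names, clusters 7, 5, 1, 6 and 2 are fibroblasts from the crypt base (7) to the crypt apex (2), and clusters 4, 3 and 8 are the mural cells: pericytes, vascular SMC and interstitial SMC.

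Marker genes fitted these names with limits. In counts per 500000 gene counts, the summed level of 7 pericyte markers was 5332 to 6022 in the lines of cluster 4. In those of cluster 3 it was 1132 to 1728. Of 4 interstitial SMC markers, *Hhip* was at 1339 in cluster 8 and at most 65.8 in any other cluster. *Actg2* (1667) and *Rgs10* (470.4) were also highest in cluster 8, with *Rgs10* at 312.9 in cluster 2. *Des* went the other way, at 200.5 in cluster 8 against 1159 in cluster 3 and 699 in cluster 4. Cluster 4 also carried fibroblast transcripts, with a summed level of 4 fibroblast markers of 733 to 1690 against 112.1 to 655 in cluster 3. Of 10 endothelial markers, *Cdh5* had a mean of at most 0.7 in every cluster, whereas *Tek* was at 179.5 in cluster 7 and 109.8 in cluster 5. The 10 together were at 139.4 to 274.3 in the lines of clusters 5 and 7, at 112.6 to 203.4 in those of cluster 4 and at 13.8 to 84.8 in the others. The depth of a cell was 47598 to 1494292 gene counts. A level below is the mean over the cells of a cluster in 1 line, in counts per 500000, for lines with at least 10 cells of the cluster, and levels given as mean ± SD are over lines. Some levels rested on 1 cell: of the levels of the 10 genes at 1 or more, 30 (23.3%) took over 50% from the highest cell. In clusters 4 and 3 no level of *Notch3*, *Hey2*, *Heyl* or *Hes1* took more than 30.4% from 1 cell. Levels without the highest cell of each line, an alternative chosen after seeing the data, are given where they matter, and the tests include all cells. Because only sorted cells were counted, these are levels per cell and carry no information on how many cells of a type the tissue holds.

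**Figure D1:**
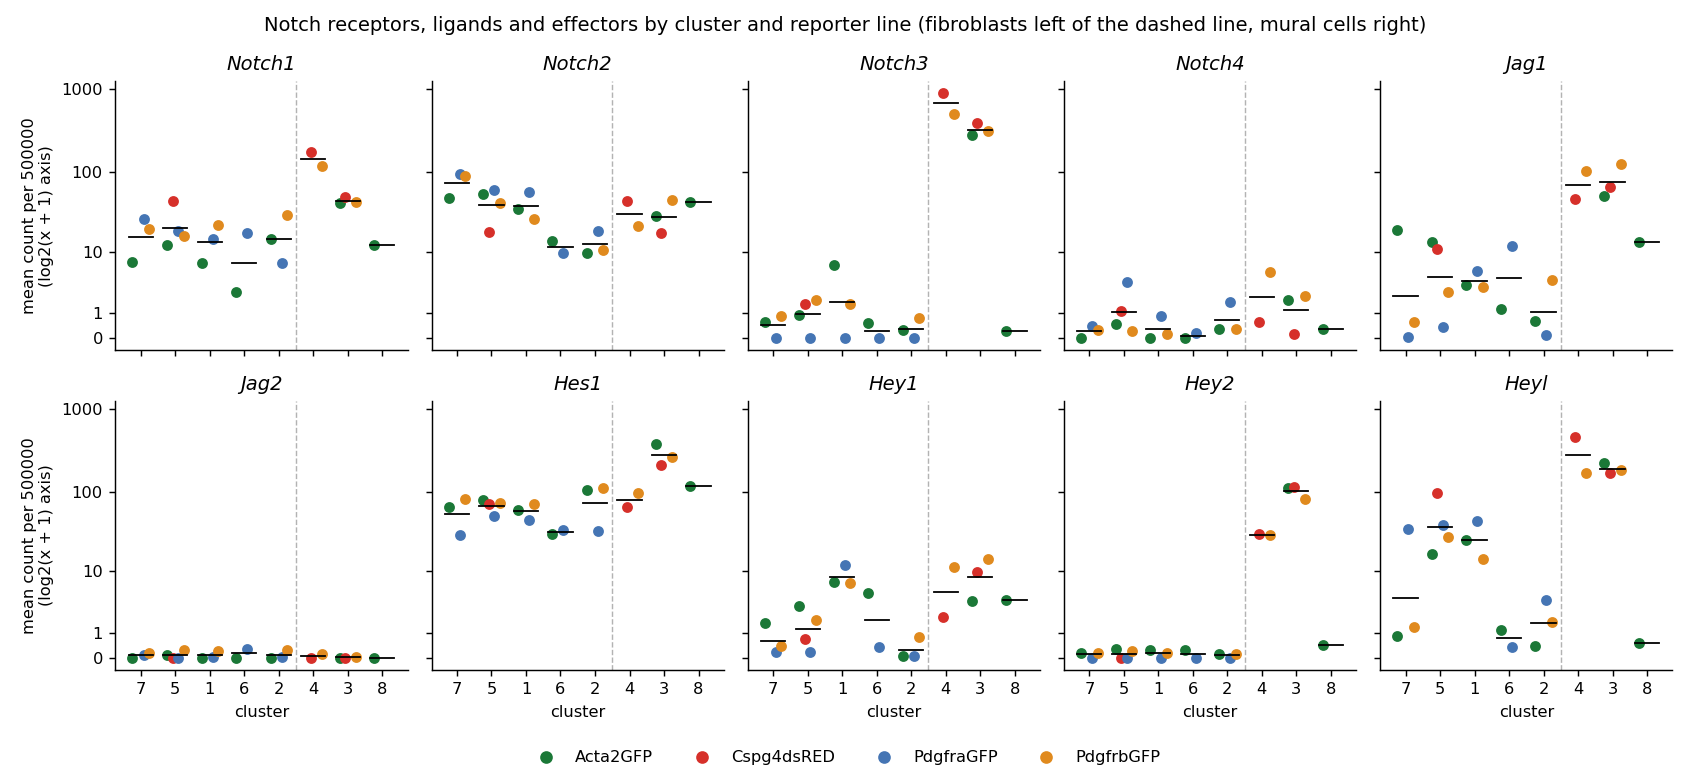
Level of each of the 10 genes (vertical axis, mean count per 500000 on a log2(x + 1) axis) in each cluster (horizontal axis), 1 point per reporter line with at least 10 cells and a bar at the mean of the log2 values. *Notch3* and *Hey2* stand high in clusters 4 and 3 and near 0 elsewhere, cluster 8 included, whereas *Hes1* and *Notch2* are present in every cluster.

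*Notch3* marked the vascular mural cells. In pericytes its level was 899.7 in the Cspg4dsRED line and 511 in the PdgfrbGFP line (705.6 ± 274.6, SD, n = 2 lines). In vascular SMC the Acta2GFP line was at 284.9, the Cspg4dsRED line at 390.02 and the PdgfrbGFP line at 313.9 (329.6 ± 54.3, n = 3). In interstitial SMC, with 52 cells of the Acta2GFP line, it was 0.229. All lines of cluster 4 lay above all lines of cluster 3, and both lay far above every other cluster, where no line passed 6.66. At a common depth of 50000 counts per cell, *Notch3* was detected in 86.4% of 140 pericytes (95% Clopper-Pearson interval 79.6 to 91.6), in 87.9% of 140 vascular SMC (81.3 to 92.8) and in 1 of 54 interstitial SMC (1.85%, 0.0469 to 9.89). Without thinning these shares were 95.1%, 94.3% and 7.14%, with median depths per cell of 209805, 359677 and 118252 counts.

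The other 3 receptors were spread differently. *Notch1*, which is broadly expressed and is best known from endothelial and blood cells, had its highest level in pericytes as well, at 175.4 in Cspg4dsRED and 119.4 in PdgfrbGFP (147.4 ± 39.5, n = 2), followed by vascular SMC at 41.1 to 49.3 (44.6 ± 4.23, n = 3). Its lines in clusters 4 and 3 did not overlap, and from cluster 3 downward every neighbour in the order overlapped the next. *Notch2* was instead highest in the crypt base fibroblasts of cluster 7, at 48.6 in Acta2GFP, 93.6 in PdgfraGFP and 89.7 in PdgfrbGFP (77.3 ± 24.95, n = 3), and lowest in the upper fibroblasts of clusters 2 and 6, at 9.50 to 18.8, with every cluster overlapping its neighbour in the order. Without the highest cells these ranges were 45.05 to 82.6 and 1.77 to 15.4. *Notch4*, known chiefly from endothelium, did not pass 5.19 in any line, or 1.31 without the highest cells. The summed endothelial level of cluster 4, given above, compares with 22.1 to 36.7 in the lines of cluster 3. *Tie1* and *Plvap*, at 39.1 and 83.4, made up most of it in cluster 4, and *Cdh5* was at 0.7. Of the 10 markers only *Erg* was lower than in cluster 3, at 0.374 against 2.65. The lines of clusters 5 and 7 had sums of 139.4 to 274.3, with *Notch1* means of 22.6 and 17.7. Within cluster 4 the median summed endothelial level was 51.1 in 110 cells with a *Notch1* count and 43.05 in 32 cells without; the part of endothelial RNA in the *Notch1* level was not tested.

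Counts of a long transcript are larger at the same number of molecules, so the receptors were set side by side per kilobase of annotated exons (14.2 kb for *Notch1*, 10.8 kb for *Notch2*, 8.09 kb for *Notch3* and 8.06 kb for *Notch4*). On that scale *Notch3* made up 86.4% of the summed receptor level in pericytes, where it was at 87.2 per kilobase against 10.4 for *Notch1*. In vascular SMC its share was 86.96%. In interstitial SMC *Notch2* led, at 3.96 per kilobase against 0.866 for *Notch1*, as it did in the fibroblasts of cluster 7 (84.3% of the receptor level), cluster 1 (72.3%) and cluster 5 (68.2%). With 50000 counts per cell, 2 or more receptors were seen in 99 of 140 pericytes (70.7%) and 85 of 140 vascular SMC (60.7%), in 5 of 54 interstitial SMC (9.26%) and in 3.05% to 18.4% of the cells of the fibroblast clusters.

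Among the ligands, *Jag1*, the Jagged family member of vessel walls, followed the vascular mural cells. It was at 51.2, 66.2 and 126.2 in the vascular SMC of Acta2GFP, Cspg4dsRED and PdgfrbGFP and at 46.3 and 103.2 in the pericytes of Cspg4dsRED and PdgfrbGFP. These clusters overlapped. Interstitial SMC stood below both at 13.6, and fibroblast lines ranged from 0.0370 to 18.9. *Jag2* was at most 0.280 in any line, with 90 counts in 69 cells of the whole data set, too few for a test in the main fit of any comparison. Of the Delta ligands, which were not among the 10 genes but belong to the same step, *Dll4* was found mainly in pericytes, at 49.1 in Cspg4dsRED and 17.1 in PdgfrbGFP against at most 1.31 in any line of the other clusters, and at 18.95 and 12.5 without the highest cell of each. It was detected in 34 pericytes (23.9%, 17.2 to 31.8), and these 34 cells had a median summed endothelial level of 93.9 against 37.6 in the other pericytes; the part of endothelial RNA in it was not tested. *Dll1* was found in the apex fibroblasts of cluster 2, at 71.3, 202.3 and 244.5 in Acta2GFP, PdgfraGFP and PdgfrbGFP.

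The effectors divided into a shared and a restricted group. *Hes1*, a repressor that many tissues use, had counts in 1430 of the 1646 cells. It was highest in vascular SMC at 375.6, 211.4 and 261.2 in Acta2GFP, Cspg4dsRED and PdgfrbGFP (282.8 ± 84.2, n = 3), above all other clusters without overlap, and was at 116.7 in interstitial SMC, at 64.4 and 95.4 in pericytes and at 29.1 to 110 in the fibroblast lines. *Hey2* was highest in vascular SMC at 110, 112.4 and 82.1, intermediate in pericytes at 29.7 and 29.2, 0.408 in interstitial SMC and at most 0.273 in fibroblast lines. *Heyl* was at 460.1 and 166.6 in pericytes (313.3 ± 207.6, n = 2) and at 222.02, 165.8 and 180.9 in vascular SMC, and, unlike *Hey2*, it was also found in part of the fibroblasts. *Hey1* did not pass 14.7 in any line, and 7 of its 13 levels at 1 or more took over 50% from 1 cell. Per kilobase, *Hes1* made up 69.1% of the summed effector level in vascular SMC and *Heyl* 18.5%, and *Hes1* led in each of the 3 lines (63.4% to 72.9%). In pericytes the lines went apart, with *Heyl* at 69.9% and *Hes1* at 24.6% in Cspg4dsRED, and *Heyl* at 36.5% and *Hes1* at 52.5% in PdgfrbGFP. In interstitial SMC *Hes1* held 97.6%.

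*Notch3* and *Hey2* varied together more closely than any other pair of the 10 genes, with a Pearson's r of 0.956 over the 21 groups of a cluster and a line (log2(level + 1); the groups share plates and lines, and the value is a description). The RefSeq table (GRCm38.p6) holds start site windows for 7 of the 10 genes; *Hes1*, *Hey1* and *Heyl* have no entry. The 250 bases upstream of the start site are shown for these genes, the receptor and the effector that set vascular mural cells apart, 5′ to 3′ on the strand of the gene. Capitals mark the letters TTCCCA, the reverse complement of TGGGAA, which is the core that RBPJ is known to bind.

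*Hey2* (chr10:30842784-30843033, minus strand): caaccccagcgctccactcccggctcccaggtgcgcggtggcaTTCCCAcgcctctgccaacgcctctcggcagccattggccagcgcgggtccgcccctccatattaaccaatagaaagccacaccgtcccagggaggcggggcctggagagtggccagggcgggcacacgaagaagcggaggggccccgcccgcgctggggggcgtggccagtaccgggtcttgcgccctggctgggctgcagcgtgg
*Notch3* (chr17:32166891-32167140, minus strand): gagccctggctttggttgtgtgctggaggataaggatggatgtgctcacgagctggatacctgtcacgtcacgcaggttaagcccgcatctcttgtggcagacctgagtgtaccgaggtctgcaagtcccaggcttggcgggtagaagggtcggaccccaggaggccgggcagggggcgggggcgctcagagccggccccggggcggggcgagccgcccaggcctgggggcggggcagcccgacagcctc

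TGGGAA was searched on both strands. *Hey2* held 1 match, at positions -207 to -202 from the start site, and with the next base it is the reverse complement of GTGGGAA; the other 6 genes with an entry held none. Of the 32851 windows in the table, 21.6% hold TGGGAA and 5.42% hold GTGGGAA, the longer motif containing the shorter. A match of this kind is a description of letters and was not tied to binding.

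Mural cells (3 sums of counts, 1 per line) were compared with fibroblasts (4 sums) by edgeR's quasi-likelihood test across 19173 genes. Clusters were drawn by the study from the same counts, so that p-values between them are not independent of the clustering and measure only the spread between the sums of the lines. Of the 9 Notch genes with enough counts for the test, 5 were higher in mural cells and 0 lower: *Notch3*, *Jag1*, *Hes1*, *Hey2* and *Heyl*. Over all genes 6.57% were called, with 3.36% higher and 3.21% lower in mural cells. The median log2 fold change was 2.02 for the 9 genes and 0.03 for all genes.

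*Notch3* was at 2.82, 1.29, 0 and 1.54 in the fibroblasts of Acta2GFP, Cspg4dsRED, PdgfraGFP and PdgfrbGFP and at 104.2, 657 and 415.4 in the mural cells of Acta2GFP, Cspg4dsRED and PdgfrbGFP. Groups did not overlap, and the low Acta2GFP value covers 84 cells of which 52 were interstitial SMC. Its log2 fold change was 8.60 ± 1.38 (SE, adjusted p = 0.00645, edgeR), with 1 of the 4 fibroblast sums at 0, and ran from 5.46 to 9.33 over 11 alternatives. The call was lost without the Cspg4dsRED line (adjusted p = 0.0512) and without the PdgfrbGFP line (0.0707). *Hey2* was at 0.215, 0, 0 and 0.162 in the same fibroblasts and at 38.3, 69.1 and 51.4 in mural cells (log2 fold change 9.34 ± 1.13, adjusted p = 0.0018, edgeR), with 2 of the 4 fibroblast sums at 0, and the fold ran from 2.24 (limma, on mean log2 values per cell) to 9.89 over 11 alternatives. It kept its call under all 11, with adjusted p values of at most 0.0357. Of the 5 called genes it alone passed the threshold without the PdgfrbGFP line.

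*Heyl* was at 13.9, 44.4, 26.9 and 16.8 in fibroblasts and at 90.4, 319.97 and 169.2 in mural cells, without overlap (3.25 ± 0.45, adjusted p = 0.0032, edgeR). *Jag1* was at 9.83, 10.98, 3.10 and 2.58 against 28.01, 55.8 and 111.3 (3.54 ± 0.57, adjusted p = 0.0064, edgeR). *Hes1* was at 69.4, 61.9, 40.98 and 73.9 against 204.5, 134.4 and 171.3, the smallest of the 5 differences at 1.56 ± 0.34 (adjusted p = 0.0236, edgeR). It lost its call when any of the 3 lines with a mural sum was left out (0.0544 to 0.158, edgeR), and also with limma. With the line as a block, *Jag1* (adjusted p = 0.0792, edgeR) and *Hes1* (0.0637) lost their calls, so that 3 of the 9 genes remained, against 3.08% of all genes. *Notch1* did not pass the threshold, at 2.02 ± 0.52 (adjusted p = 0.0508, edgeR; 0.00118 to 0.241 over 11 alternatives). It was called higher in mural cells by DESeq2 (0.0181; 15.2% of all genes called), without the filter on low counts (0.0475; 3.81%), with plates in place of lines (0.00212; 16.1%) and with plates and the line as a block (0.00118; 14.4%). Neither *Notch2*, at -0.53 ± 0.39 (0.526), nor *Hey1*, at 1.21 ± 0.63 (0.334), passed the threshold. *Notch4* was at 0.359 to 3.78 in mural cells and 0.154 to 1.75 in fibroblasts (0.703), and *Jag2* had too few counts.

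Of 48 further genes of the pathway, 40 could be tested between fibroblasts and mural cells, with 3 called higher in mural cells and 1 lower, beside 6.57% of all genes called. The median log2 fold change of the 40 was 0.0035, against 0.03 for all genes. *Nrarp*, a Notch target that encodes an inhibitor of the pathway, was at 27.7, 40.7 and 40.3 in mural cells and at 0.158 to 0.442 in fibroblasts (7.00 ± 0.77, adjusted p = 0.00114, edgeR). Its log2 fold change ran from 1.87 to 8.42 over 11 alternatives. *Neurl1b*, a ubiquitin ligase for Notch ligands, was at 7.08 to 47.02 against 0 to 0.869 (5.13 ± 1.05, adjusted p = 0.019, edgeR), with 1.07 to 6.05 over 11 alternatives. *Dtx3*, of the Deltex family of ubiquitin ligases, was at 113.6 to 261.2 against 60.1 to 80.6 (1.44 ± 0.31, adjusted p = 0.0228, edgeR). *Pofut1*, which adds the O-fucose that Notch receptors need, was lower in mural cells, at 6.23 to 10.8 against 21.8 to 42.4 (-2.19 ± 0.53, adjusted p = 0.0395, edgeR). With the line as a block *Nrarp* alone of these 4 kept its call, and the adjusted p values of *Dtx3*, *Pofut1* and *Neurl1b* were 0.0645, 0.0996 and 0.152 (edgeR). *Pofut1* also lost its call without any 1 of the 4 lines, *Dtx3* without Acta2GFP (0.0754), PdgfraGFP (0.0638) or PdgfrbGFP (0.131), and *Neurl1b* without PdgfrbGFP (0.155).

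**Figure D2:**
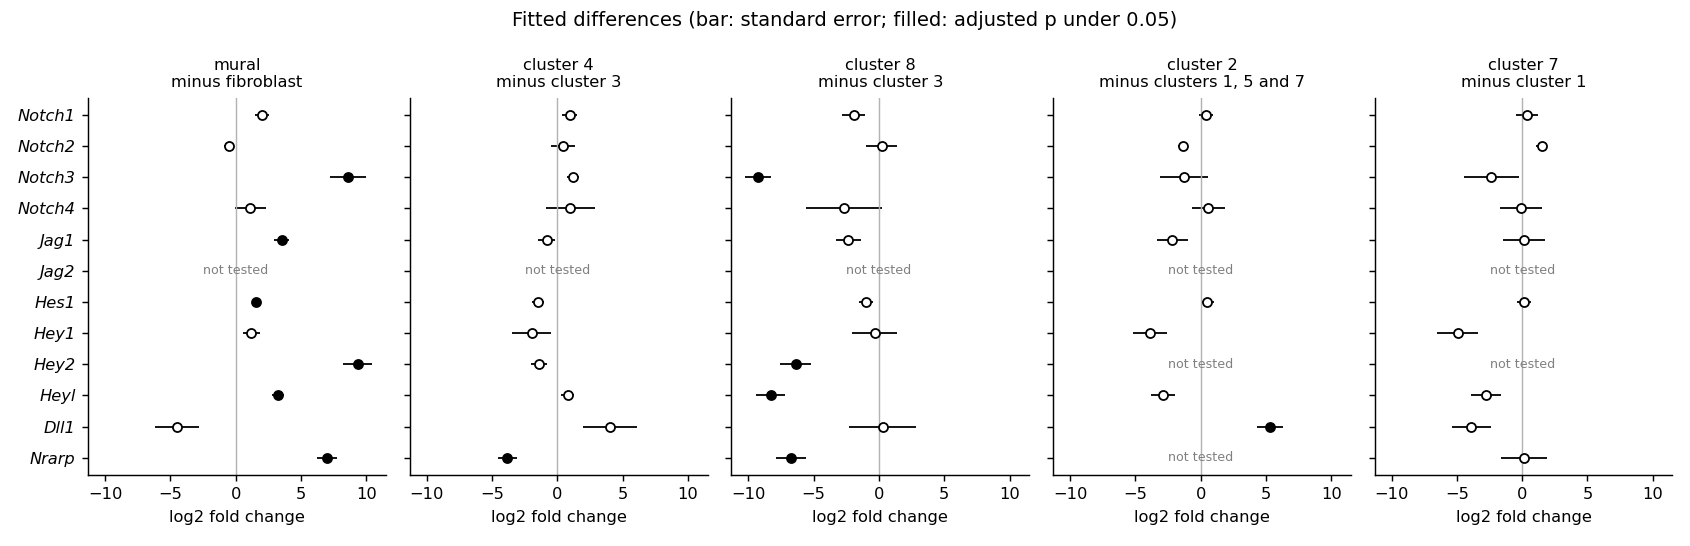
Fitted log2 fold changes (horizontal axis) with their standard errors for the 10 genes, *Dll1* and *Nrarp* (vertical axis) in 5 comparisons; filled points have an adjusted p under 0.05 in edgeR's quasi-likelihood test, and genes with too few counts were not tested. Filled points lie to the right for mural cells against fibroblasts, with *Hey2* at 9.34 and *Notch3* at 8.60, and to the left for cluster 8 against cluster 3.

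Within the mural cells, *Notch3*, *Heyl* and *Hey2* were lower in the interstitial SMC of cluster 8 than in the vascular SMC of cluster 3, although both are smooth muscle, with summed levels of 5 smooth muscle markers of 9685 and 5618 to 8534. Of the 9 tested genes 3 were lower in cluster 8 and 0 higher, against 1.04% of 16328 genes called, 0.643% lower and 0.398% higher, and a median log2 fold change over all genes of -0.31. *Notch3* fell by 9.27 on the log2 scale (SE 0.99, adjusted p = 0.00247, edgeR), *Heyl* fell by 8.28 (SE 1.11, 0.00469) and *Hey2* fell by 6.39 (SE 1.17, 0.0227). Cluster 8 was a single sum, from 1 line, so these errors hold no spread within it, and the test assumes that it varies like the other mural groups. *Hey2* lost its call when sums of at least 3 cells were used (adjusted p = 0.0594), and *Notch3* and *Heyl* kept theirs under all 8 alternatives. Behind these values stood 7 *Notch3*, 8 *Heyl* and 17 *Hey2* counts in 52 interstitial SMC, against 3767, 2259 and 1391 counts in 29 vascular SMC of the same Acta2GFP line. On each of the 2 plates of that line the contrast recurred. *Notch3* was at 0.118 in cluster 8 and at 377.6 in cluster 3 on one plate, and at 0.599 and 228.2 on the other. *Nrarp* was at 0.601 in cluster 8 and at 73.1 to 80.4 in cluster 3, and was lower too (-6.74 ± 1.16, adjusted p = 0.0166, edgeR), 1 of 38 pathway genes tested to be called.

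Interstitial SMC were not without Notch transcripts. *Notch2* was at 42.7 in cluster 8 against 17.3, 28.6 and 44.9 in the lines of cluster 3, within their range. *Hes1* was at 116.7 against 211.4 to 375.6, a log2 fold change of -0.97 ± 0.55 (adjusted p = 0.717, edgeR). *Hey1* was at 3.94 against 3.84 to 14.7, and at 0.294 against 0.0357 to 11.6 without the highest cell of each line. *Notch4* was at 0.280 against 0.127 to 2.18, and neither gene was called. *Jag1* (-2.35 ± 0.96, adjusted p = 0.438, edgeR) and *Notch1* (-1.95 ± 0.87, 0.506) had fitted values below 0 and were not called.

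**Figure D3:**
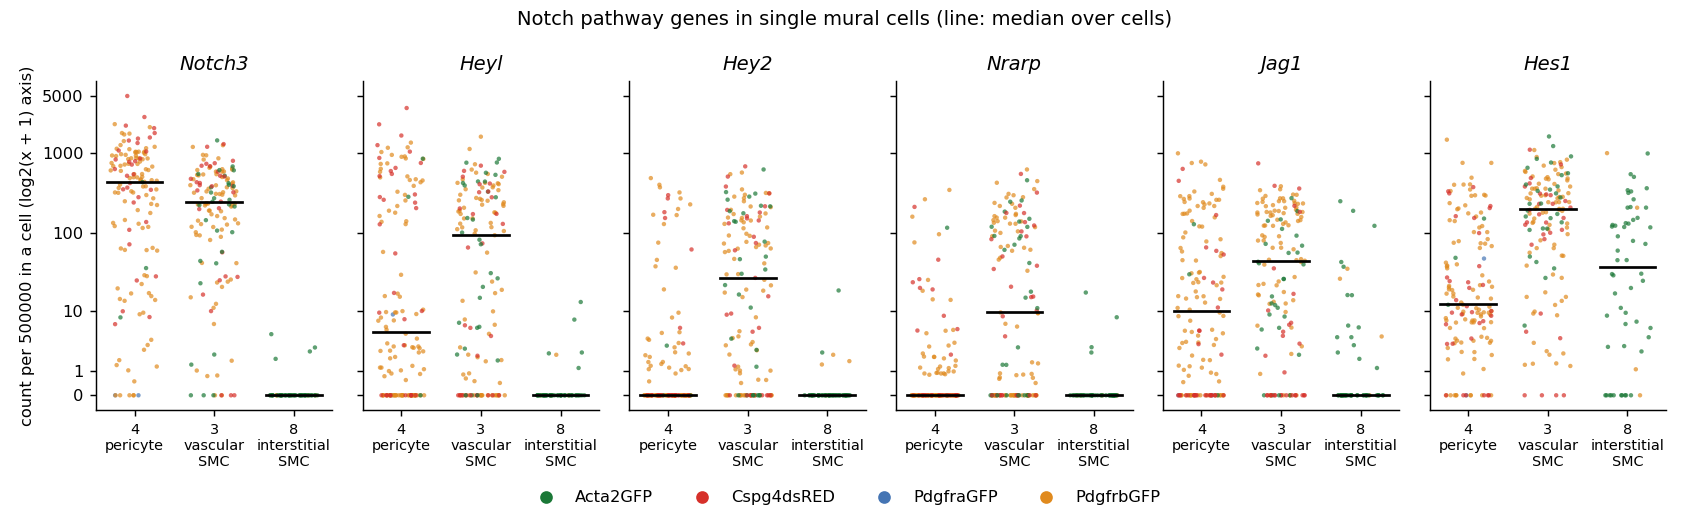
Counts per 500000 of 6 pathway genes in single mural cells (vertical axis, log2(x + 1) axis; horizontal axis, cluster), coloured by reporter line, with a bar at the median over cells. For *Notch3* the medians are 434.7 in cluster 4, 248.02 in cluster 3 and 0 in cluster 8, and no cell of cluster 8 exceeds 4.70; for *Hes1* the medians are 12.6, 201.5 and 38.4.

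Between pericytes and vascular SMC no Notch gene passed the test. None of the 9 tested genes was called between cluster 4 (2 sums) and cluster 3 (3 sums), where 0.668% of 16328 genes were called by edgeR; 2 of the 9 had an unadjusted p under 0.05, against 10.9% of all genes, and DESeq2 and limma called 0 as well (6.01% and 0.435% of all genes). *Hes1* was lower in pericytes in both lines that hold both clusters (-1.48 ± 0.43, adjusted p = 0.196, edgeR). It was called when plates were summed in place of lines (adjusted p = 0.0482, edgeR, with 2.18% of all genes called), but not with plates and the line as a block. *Notch3* was at 1.22 ± 0.44 (adjusted p = 0.331, edgeR), *Hey2* at -1.40 ± 0.64 (0.461), *Notch1* at 0.95 ± 0.59 (0.6), *Jag1* at -0.81 ± 0.67 (0.735) and *Heyl* at 0.78 ± 0.52 (0.628). *Notch2* (0.952), *Notch4* (0.936) and *Hey1* (0.684) were not called either, with overlapping lines. The *Heyl* value rested on the Cspg4dsRED line: without it the log2 fold change was -0.11. *Nrarp* was the single called gene of 38 in the pathway, at 11.3 and 10.3 in pericytes (4.95 and 7.03 without the highest cells) against 73.1 to 80.4 in vascular SMC (-3.83 ± 0.71, adjusted p = 0.0329, edgeR). Over 10 alternatives its log2 fold change ran from -4.11 to -1.25, with adjusted p values of 1.12e-05 to 0.895. Of these alternatives 4 kept the call, which was lost without Acta2GFP or PdgfrbGFP.

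The mean log2 level of 16 genes known to respond to tissue dissociation was 4.17 and 4.42 in the pericyte lines and 6.92 to 7.76 in those of vascular SMC, so that *Hes1* and this score moved together between the clusters; its part in the *Hes1* difference was not tested. Across cells, too, the pattern was uneven. At 50000 counts per cell *Hey2* was detected in 27 of 140 pericytes (19.3%, 13.1 to 26.8) and 82 of 140 vascular SMC (58.6%, 49.9 to 66.8), and *Heyl* in 73 (52.1%) and 89 (63.6%). At least 3 of the 4 effectors were found together in 17.9% of pericytes and 46.4% of vascular SMC. *Notch3* and *Jag1* were found in the same cell in 97 of 140 vascular SMC (69.3%) and 72 of 140 pericytes (51.4%), a description of receptor and ligand in single cells that depends on depth. *Heyl* was detected in 58.7% of the pericytes with a *Notch3* count and in 10.5% of 19 without one, and in 65.9% of the vascular SMC with a *Notch3* count and 47.1% of 17 without one.

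Fibroblasts carried almost no *Notch3*. In the PdgfraGFP line 0 fibroblasts had a *Notch3* count, which allows a share of up to 1.33% (3 cells of the line's fibroblasts, a limit of another kind than the Clopper-Pearson intervals), and 3 counts would have given a level of 0.0168. Over all lines 21.9% of the 1307 fibroblasts had a count, with a median of 1 count in those cells, and 1 fibroblast had 100 raw counts or more. The 10 fibroblasts with the most counts held 46.9% of the 961 *Notch3* counts. PdgfraGFP plates held 1 mural cell each, 0.645% and 1.39% of their cells, and the other plates 8 to 90, and the share of fibroblasts with a *Notch3* count was 5.83% to 73.1% on those 7 plates. Between the *Notch3* count of a fibroblast and the summed *Notch3* counts of mural cells in wells of its row or column, Spearman's rho within plates was 0.0398 to 0.637 over 7 plates and 1082 cells, a description of cells that share a plate. For *Hey2* it was 0.112 to 0.487 (6 plates), for *Heyl* 0.109 to 0.575, for *Jag1* 0.101 to 0.492 and for *Nrarp* -0.0463 to 0.584. *Hey2* was at 0 in the PdgfraGFP fibroblasts as well, and its counts in the other lines were spread over 88 fibroblasts. The share was highest on the PdgfrbGFP plate with the most mural cells (77.6%), at 73.1% for *Notch3* and 19.2% for *Hey2*, and 0 on the PdgfraGFP plates, with the fewest. Plates between them were not in the order of their mural cells: on the Cspg4dsRED plate, 69.2% mural cells, *Notch3* was found in 32.1% of 28 fibroblasts and *Hey2* in 0, and on the Acta2GFP plate with 20.5% mural cells in 5.83% and 0.485%, while a PdgfrbGFP plate with 3.98% mural cells had 35.7% and 10.8%. Depth differed too, with medians of 113721 counts per cell on the Cspg4dsRED plate, 117799 on that Acta2GFP plate and 650920 on the plate with the most mural cells. The part of carry-over between wells and of depth in these values was not tested.

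**Figure D4:**
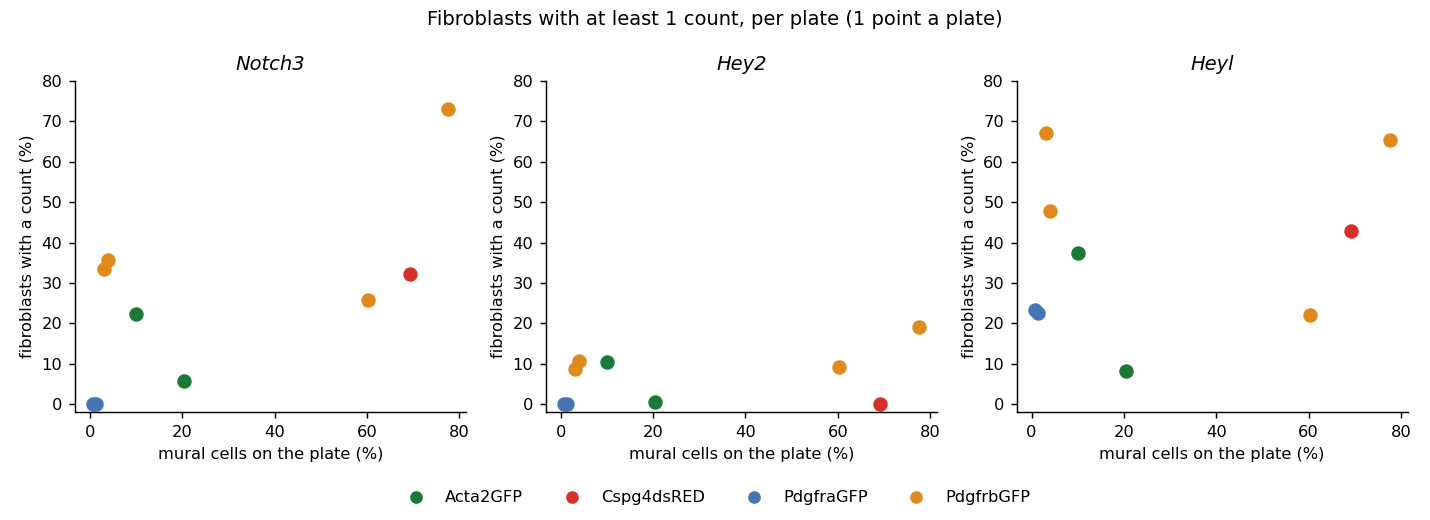
Share of fibroblasts with at least 1 count of *Notch3*, *Hey2* or *Heyl* (vertical axis, %) against the share of mural cells on the plate (horizontal axis, %), 1 point per plate, coloured by reporter line. Both PdgfraGFP plates are at 0 for *Notch3* and *Hey2* and at 22.5% and 23.4% for *Heyl*.

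*Heyl* was present in fibroblasts of the plates almost free of mural cells, at 20.2 and 29.99 over the fibroblasts of the PdgfraGFP plates. Over all lines 51 fibroblasts had 100 raw counts of *Heyl* or more. It was highest in the fibroblasts of clusters 5 and 1. In cluster 5 it was at 16.8, 94.8, 39.3 and 27.5 in Acta2GFP, Cspg4dsRED, PdgfraGFP and PdgfrbGFP, and in cluster 1 at 25.4, 43.03 and 14.4 in Acta2GFP, PdgfraGFP and PdgfrbGFP. In the apex fibroblasts of cluster 2 it was at 0.385, 3.92 (0.0730 without 1 cell) and 1.70, below every line of clusters 1 and 5, and in cluster 6 at 0.349 and 1.16. In cluster 7, at the crypt base, it was at 0.806 in Acta2GFP, 1.35 in PdgfrbGFP and 34.3 in the 15 cells of PdgfraGFP, of which 1 cell gave 99.1%. Without that cell the PdgfraGFP level was 0.318.

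The apex fibroblasts of cluster 2 (3 sums) were compared with clusters 1, 5 and 7 (4 sums). None of the 8 Notch genes with enough counts for the test (*Hey2* and *Jag2* had too few) was called by edgeR, where 7.26% of 15893 genes were; 3 of the 8 had an unadjusted p under 0.05, against 20.2% of all genes, and limma called 0 (6.42% of all genes). The 3 were *Notch2*, *Heyl* and *Hey1*, all lower at the apex, with log2 fold changes of -1.32 ± 0.38 (adjusted p = 0.0702, edgeR), -2.88 ± 0.89 (0.088) and -3.88 ± 1.33 (0.124), and DESeq2 called all 3 (0.00672, 0.0107 and 0.00331; 15.3% of all genes). Summed by plate, *Heyl* alone was called (0.027; 12.1% of all genes). *Notch2* was at 9.75, 18.8 and 10.6 in the apex lines and at 45.005, 18.98, 62.3 and 41.95 in the lines of clusters 1, 5 and 7, where the lowest value, of 26 Cspg4dsRED cells, lay just above the highest apex value. Without the highest cells it was 12.1, below the highest apex value of 15.4. *Jag1* was at -2.17 ± 1.19 (adjusted p = 0.367, edgeR). The mean log2 level of the 16 dissociation genes was 7.33 to 8.28 in the apex lines and 3.81 to 6.72 in those of clusters 1, 5 and 7, and its part in these differences was not tested. *Notch1* was at 7.05 to 29.9 at the apex and 8.65 to 23.2 below it (0.753), *Hes1* at 32.3 to 110.4 and 45.6 to 72.3 (0.682), and *Notch3* (0.788) and *Notch4* (0.866) were not called. Of the pathway genes tested, *Dll1* rose toward the apex (5.33 ± 0.98, adjusted p = 0.0123, edgeR). It missed the threshold without the Acta2GFP line (0.0851) and without the PdgfrbGFP line (0.0651).

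**Figure D5:**
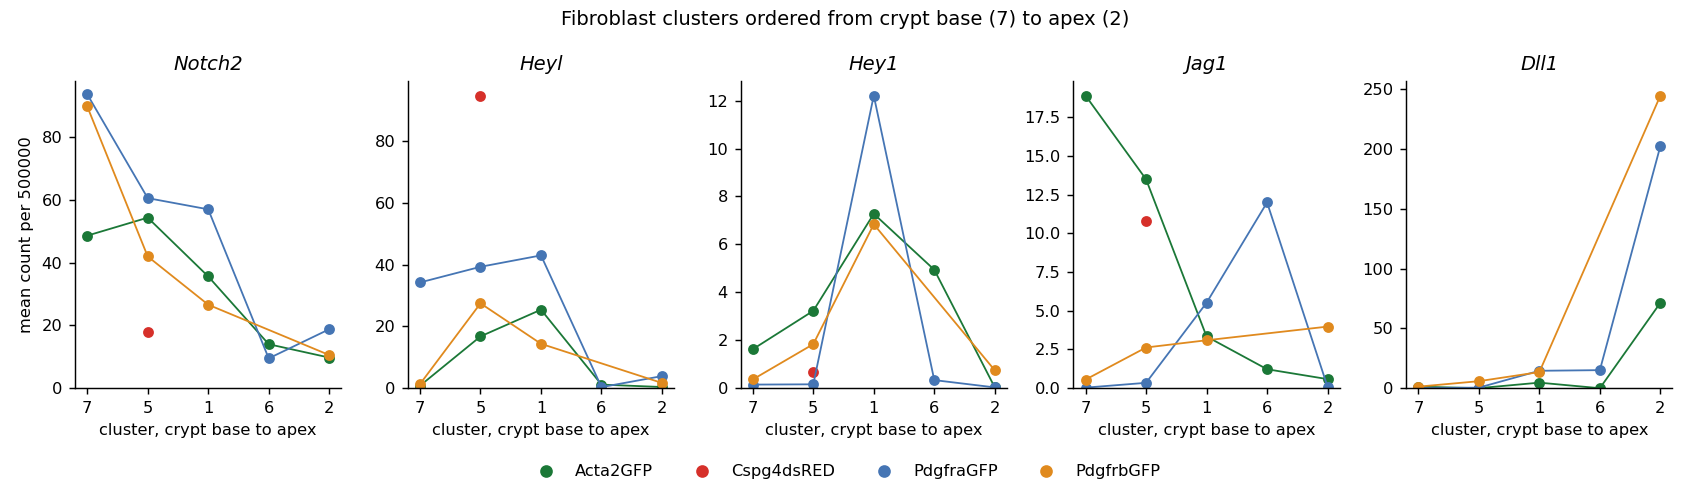
Levels of *Notch2*, *Heyl*, *Hey1*, *Jag1* and *Dll1* (vertical axes, mean count per 500000) in the fibroblast clusters ordered from crypt base to apex (horizontal axis), with 1 line per reporter line. *Notch2* is highest in cluster 7 at up to 93.6 in PdgfraGFP and PdgfrbGFP, while in Acta2GFP cluster 5 (54.3) lies above cluster 7 (48.6), and *Dll1* in cluster 2 at up to 244.5, and *Hey1* is highest in cluster 1 in each of the 3 lines shown for it.

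Crypt base fibroblasts of cluster 7 were set against cluster 1 (3 sums each). Again 0 of 8 Notch genes were called by edgeR, where 0.909% of 18924 genes were, and 3 had an unadjusted p under 0.05, against 9.83% of all genes; DESeq2 called 2 (4.48% of all genes) and limma 0 (1.32%). *Notch2* was higher in cluster 7 in all 3 shared lines, at 48.6 against 35.6 in Acta2GFP, 93.6 against 56.9 in PdgfraGFP and 89.7 against 26.6 in PdgfrbGFP (1.49 ± 0.44, adjusted p = 0.168, edgeR; DESeq2, 0.00667). After thinning it was detected in 67.7% of 220 cells of cluster 7 (61.1 to 73.9), 55.9% of cluster 5 (51.03 to 60.7), 42.6% of cluster 1 (38.2 to 47.2) and 27.5% of cluster 2 (20.05 to 35.96). Unthinned shares were 86.996%, 78.8%, 68.7% and 48.9%. *Hey1* was at 1.63, 0.151 and 0.365 in cluster 7 and at 7.28, 12.2 and 6.84 in cluster 1, without overlap (-4.96 ± 1.57, adjusted p = 0.212, edgeR; DESeq2, 0.00255). *Heyl* was at -2.79 ± 1.15 (adjusted p = 0.403, edgeR). *Notch1*, *Notch3*, *Notch4*, *Jag1* and *Hes1* had adjusted p values of 0.925 to 1, and 0 of 40 pathway genes were called, with 1 at an unadjusted p under 0.05 and 0 called by DESeq2.

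*Jag1* in fibroblasts was uneven between plates and between cells. In cluster 7 it was at 18.9 in Acta2GFP against 0.0370 in PdgfraGFP and 0.557 in PdgfrbGFP, and within Acta2GFP at 26.1 on one plate and 1.98 on the other. The highest cell, at 840.2, carried part of the first value, which was 16.9 without it (1.16 on the other plate without its own highest cell). In cluster 5 the same plates stood at 18.5 and 0.603, and a single cell at 1338.5 carried most of the first, which was 4.03 without it (0.198 on the other). In cluster 1 they stood at 4.35 and 2.34, and at 3.31 and 0.694 without the highest cell of each, with 27433574 and 11285917 gene counts in 87 cells each. Lines were compared within a cluster over plates, Acta2GFP (2 plates) against PdgfrbGFP. The study digested tissue of the Acta2GFP line with elastase as well, and the labels do not say whether plates share mice, so that line, digestion and animal cannot be told apart. In cluster 1 (4 PdgfrbGFP plates) 0 of 7 tested Notch genes and 0 of 15700 genes were called by edgeR (0%), with 2.77% of genes at an unadjusted p under 0.05. *Notch1* alone of the 7 was among these (-2.10 ± 0.91, adjusted p = 1, edgeR), at 5.44 and 8.73 on the Acta2GFP plates and at 11.8 to 41.9 on the PdgfrbGFP plates, and DESeq2 called 0 of 8 (0.273% of all genes). In cluster 3 (2 PdgfrbGFP plates) 0 of 9 were called by edgeR (0% of 14724 genes), 0 had an unadjusted p under 0.05 (6.09% of all genes) and DESeq2 called 0 (2.96%); *Jag1* was at -0.97 ± 0.47 (adjusted p = 0.802, edgeR) and *Hes1* at 0.58 ± 0.33 (0.802). The remaining genes with enough counts for the test, *Notch2*, *Notch3*, *Hes1*, *Hey1*, *Jag1* and *Heyl* in cluster 1 and *Notch1* to *Notch4*, *Hey1*, *Hey2* and *Heyl* in cluster 3, had adjusted p values of 1 and of 0.802 to 1.

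For 9 of the 10 genes, *Jag2* being below 5 counts per 500000 in every group, the genes most alike in level over the 21 groups were ranked by Pearson's r of log2(level + 1), as a description. *Notch3* was closest to *Gja4*, a gap junction gene of vessel walls (0.985), *Olfr558* (0.981) and *Slc7a2* (0.978). *Hey2* was closest to *Olfr78* (0.994), *Tesc* (0.994) and the potassium channel gene *Kcna5* (0.992). *Heyl* was less tightly matched, with *Cystm1* (0.906), *Serpini1* (0.869) and *Cck* (0.841), as were *Jag1*, with *Rassf3* (0.912), *mt-Nd4* (0.883) and *Plekha2* (0.882), and *Hes1*, with *Acss1* (0.892), *Vps37b* (0.868) and *Myl4* (0.864). *Notch2* was nearest to *Tcf7l1* (0.849), *Iqck* (0.819) and *Igsf8* (0.815). *Hey1* was nearest to *Ppp1r1a* (0.806), *Lrrc32* (0.787) and *Trmt9b* (0.785), and *Notch4* to *Ubald2* (0.717), *Ubr1* (0.715) and *Slc45a3* (0.715). For *Notch1* the nearest was *Gm13568* (0.842), which the annotation places on the opposite strand within *Notch1*, so that the counts of both cannot be told apart where the counting ignores strand; *Gimap6* (0.840) and *Imp3* (0.832) followed.

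In the GENCODE vM21 annotation of GRCm38 the receptor genes that carried most of these values lie on chromosome 17, 32120820 to 32166852 (*Notch3*, minus strand), chromosome 3, 98013527 to 98150361 (*Notch2*, plus strand) and chromosome 2, 26457903 to 26516663 (*Notch1*, minus strand). *Jag1* is on chromosome 2, 137081456 to 137116644 (minus strand), *Hes1* on chromosome 16, 30064384 to 30067796 (plus strand), *Hey2* on chromosome 10, 30832359 to 30842801 (minus strand) and *Heyl* on chromosome 4, 123233556 to 123249875 (plus strand). These 4 genes overlap no other annotated gene, while *Notch3* overlaps *Gm17276* on the opposite strand.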

How the data were processed

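The data were SmartSeq2 libraries of 1646 single colon cells. After adapter trimming the authors aligned reads to GRCm38 (mm10) with TopHat2 and the Bowtie or Bowtie2 option, and they deposited raw counts per gene from featureCounts. They removed shallow cells and, as likely doublets, cells with very many genes; no doublet caller was run here. Use of strand is not given in the sources used here. The 92 ERCC rows (1.36% of counts) were left out. Clusters are the authors' own, drawn from the same counts, so tests between clusters are not independent of them. The Notch genes, pathway and marker lists were chosen with earlier results of these data known.

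Levels are counts per 500000 gene counts. Counts were summed per class and reporter line (at least 10 cells; 2202988 to 217742647 counts per sum), filtered with filterByExpr, normalized with TMM and tested with edgeR 4.0.16 (glmQLFit, glmQLFTest, two-sided, Benjamini-Hochberg adjustment over all genes, threshold 0.05), with all mural or all fibroblast clusters fitted together for contrasts within them. Standard errors are the log2 fold change over the square root of F. Alternatives were DESeq2 1.42.0, limma 3.58.1, no filter, plates, other cell minimums, a replicate block and leaving out each line or plate. Scripts were tested on simulated data. Thinned shares leave out 11 cells below 50000 counts. Intervals (95%) and limits cover counting error only, since reads without molecular identifiers are not independent molecules. Named are all 10 genes in every comparison, pathway genes where called (1 is not reported here) and, for likeness, the 3 nearest genes with a level of at least 10 in a group. Folds are printed for selected genes. Sums of one line share plates, but the main fits did not pair them. The line entered only in the replicate block alternatives. Deviations of such sums from their group means correlated at 0.0631 to 0.158 over all pairs. Other mice, and the p-values' reach beyond these lines, cannot be judged, as the labels name no mouse.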

Additional observations from a re-analysis of the deposited data

Results flagged for a closer look

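In 50 groups of 4 lines or plates, the highest or lowest sample stood apart from the rest in 6. The rule flags about 1 in 20 by chance only for independent, normally distributed values. These groups share cells and many levels lie near 0, so that the 6 were not weighed against chance. *Hey1* in fibroblasts was at 6.54 counts per 500000 in the Cspg4dsRED line (28 cells; 0.332 without 1 cell) and at 3.62 to 4.01 in the other 3 lines. Plate 075s, of the PdgfrbGFP line, was highest of 4 plates for *Hey1* in cluster 5 (3.43, others 0.0809 to 0.310), for *Notch4* in cluster 1 (0.287, others 0 to 0.0322) and in cluster 5 (0.429, others 0 to 0.0611), and for *Jag2* in cluster 5 (0.489, others 0). *Jag2* in clusters 1, 5 and 7 together was at 0.209 in PdgfrbGFP and at most 0.0185 in the other 3 lines. The *Notch4* and *Jag2* values are all under 1 count per 500000. Their cause was not tested.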

How the results depend on the processing

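The number of Notch genes called kept within 1.5 times its value in 60 of 68 alternative fits. These 60 include fits where 0 stayed 0. Among them are those between lines, where the main fits called 0 of 15700 and 0 of 14724 genes. Between fibroblasts and mural cells (5 called) the reporter line as a replicate block left 3, and leaving out 1 line gave 1 to 5, with 1 (*Hey2*) without PdgfrbGFP and 3 without Cspg4dsRED. Between clusters 4 and 3 (0 called) plates in place of lines gave 1. At the apex (0 called) DESeq2 gave 3, plates gave 1 and leaving out 1 line gave 0 to 1, with 1 (*Notch2*) without Cspg4dsRED. Between clusters 7 and 1 (0 called) DESeq2 gave 2. Leaving out 1 line or plate gave 3 to 3 for cluster 8 against 3 and 0 to 0 in the other comparisons; without Acta2GFP cluster 8 could not be fitted. *Heyl* between clusters 4 and 3 turned to -0.53 with limma and to -0.11 without Cspg4dsRED, with -0.11 to 1.35 over the fits without 1 line. The cause was not tested, except that leaving out a line leaves fewer sums. The block with plates, chosen after seeing the data, gave 6 calls between fibroblasts and mural cells and 0 between clusters 4 and 3. For single genes 32 alternatives ended a call and 12 gave one. Summing counts over cells before scaling moved 6 of 70 levels by more than 1 SD between lines, and thinning moved 69 of 80 shares of cells outside their intervals. Each group had 1 to 4 sums, which limits every test here, and genes with few counts, such as *Jag2*, were left out of the main fits. *Jag2* was tested where no filter on low counts was used, and was not called there.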
